A study of Mus musculus with 6 samples.

Results

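The 10 genes described here encode transcription factors that build and maintain the somatic cells of the gonad: Sox9, Sox8, Dmrt1, Wt1, Gata4, Gata1, Nr0b1, Nr5a1, Lhx9 and Emx2. They were chosen by name, as the rows of a count table of 54232 mouse genes whose identifiers carry these symbols, and all 10 were found and passed the filter on low counts, as 10 of the 20153 genes tested. RNA of testes from B6D2F1 mice (given as inbred), taken at postnatal day 4, was sequenced for 3 Dis3l2 WT and 3 Dis3l2 cKO samples, to find genes whose RNA differs between control and conditional knockout testes. The product of Dis3l2 is a nuclease that breaks down RNAs with uridine tails from their ends. The labels used here name neither the Cre driver nor the deleted exons, and they give no further allele or treatment for either group. Nor do they tie each sample to an animal, so the p-values reflect sample-to-sample spread, which may be technical.

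In the mammalian gonad, WT1, GATA4, NR5A1, LHX9 and EMX2 act in the bipotential genital ridge before sex is determined. SRY then switches on Sox9, and SOX9, with SOX8, drives supporting cells to become Sertoli cells, the somatic cells that nurse the germ cells. DMRT1 keeps Sertoli cells from taking on an ovarian fate and is also made in male germ cells. NR0B1, also called DAX1, restrains NR5A1, which in turn drives the steroid-producing genes of Leydig cells. GATA1 is best known from blood formation and is also made in Sertoli cells. At this age a testis holds Sertoli cells, early spermatogonia, fetal-type Leydig cells, peritubular myoid and other stromal cells, vessels, macrophages and a covering mesothelium.

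Several of these genes belong to families whose DNA-binding domains are alike, which bears on whether reads can be told apart between them. The Sox9 and Sox8 coding sequences were most alike over a stretch of 90 bases in the HMG box, the DNA-binding domain, on GRCm38 at chr11:112782887-112782976 (plus strand) for Sox9 and chr17:25570149-25570238 (minus strand) for Sox8. Capitals mark the bases that differ.
Sox9: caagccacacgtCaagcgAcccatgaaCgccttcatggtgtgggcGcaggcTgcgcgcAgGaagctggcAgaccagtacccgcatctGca
Sox8: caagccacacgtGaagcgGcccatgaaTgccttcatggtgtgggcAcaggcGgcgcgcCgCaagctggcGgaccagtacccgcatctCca
In this stretch 81 of 90 bases were identical, and the longest identical run between the coding exons was 23 bases. Gata4, at chr14:63204610-63204699 (minus strand), and Gata1, at chrX:7961945-7962034 (minus strand), were most alike in the zinc finger region, with the same use of capitals.
Gata4: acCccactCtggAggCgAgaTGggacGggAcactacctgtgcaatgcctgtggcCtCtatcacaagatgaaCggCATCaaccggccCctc
Gata1: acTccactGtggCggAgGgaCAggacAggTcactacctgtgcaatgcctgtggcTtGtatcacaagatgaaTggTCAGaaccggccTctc
Here 73 of 90 bases were identical, with a longest identical run of 24. No word of 50 bases in the exons of Sox9, Dmrt1, Wt1, Gata4, Gata1, Nr0b1 or Nr5a1 occurred in another gene model. Searched on both strands, Sox8 shared 8.99% of its 50-base words with 2810468N07Rik. Emx2 shared 7.18% with Emx2os, a model on the opposite strand. Lhx9 shared 0.14% of them with other genes. The 250 bases before the RefSeq start of Nr0b1 (GRCm38.p6, chrX:86191525-86191774, plus strand) are shown because NR5A1, another of the 10 factors, is known to act on this gene, and capitals mark 3 motifs.
Nr0b1: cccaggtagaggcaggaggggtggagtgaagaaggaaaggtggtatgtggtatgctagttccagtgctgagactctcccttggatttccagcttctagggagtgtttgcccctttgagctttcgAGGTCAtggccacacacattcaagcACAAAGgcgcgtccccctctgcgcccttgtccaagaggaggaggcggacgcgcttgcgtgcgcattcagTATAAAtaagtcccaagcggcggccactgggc
The first is AGGTCA, the core of sites bound by NR5A1, 126 to 121 bases upstream. The second is ACAAAG, a core of SOX sites, 101 to 96 bases upstream. The third is TATAAA, the TATA box, 32 to 27 bases upstream. Searched on both strands, AGGTCA occurred in 14%, ACAAAG in 16.5% and TATAAA in 12.4% of 32851 RefSeq windows of this length. Of the other motifs searched, GATAA (in 22.6% of windows) and CCAAT (in 33.8%) were not found in this one. These are matches of letters only.

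The libraries held 26126694 to 43265614 counts. Dis3l2 itself was level between the groups, with a CPM (counts per 1000000 counts, library sizes scaled by TMM, the trimmed mean of M-values) of 31 to 32.8 in WT and 30.6 to 33.6 in cKO. The edgeR quasi-likelihood test gave it a log2 fold change (cKO over WT throughout) of -0.01 with an SE of 0.07 and an adjusted p of 0.956, so the gene's total count does not check the labels. The library cKO 1 stood apart: it had the lowest depth, yet a count in 36184 genes against 29741 and 29846 in cKO 2 and cKO 3 and 32855 to 33898 in WT. Results that rest on it are given with and without it.

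Levels of different genes were compared per kilobase of gene model (kb of exon). Dmrt1 had the highest WT level of the 10 genes, at 105 ± 1.5 CPM per kb (SD, n = 3). Sox9, at 94.7 ± 1.2, and Gata4, at 94.7 ± 3.6 CPM per kb (SD, n = 3), came next and overlapped each other. Sox8 followed at 57.6 ± 2.5, Nr5a1 at 47.6 ± 1.1 and Wt1 at 38.5 ± 1.2 CPM per kb (SD, n = 3), with no overlap between neighbours. Nr0b1, at 18.8 ± 2.1, and Lhx9, at 18.5 ± 0.96 CPM per kb (SD, n = 3), overlapped. Emx2, at 2.2 ± 0.25, and Gata1, at 1.37 ± 0.021 CPM per kb (SD, n = 3), were the lowest of the 10.

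In cKO the upper end of this order was not the same. Gata4 had a mean of 109 ± 15, Sox9 of 107 ± 13 and Dmrt1 of 91.5 ± 5 CPM per kb (SD, n = 3), so that Dmrt1 came after both, although these 3 ranges overlapped in cKO. The levels and their order depend on the length taken for each gene. With the longest coding transcript in place of the whole gene model, Wt1 at 77.2, Nr5a1 at 67.4 and Sox8 at 59.8 CPM per kb stood in the reverse order in WT, and Gata4 at 109 stood above Sox9 at 94.7. Lhx9 at 35.5 then stood above Nr0b1 at 18.8 CPM per kb. Dmrt1 stayed first at 116, and Emx2 and Gata1 stayed last at 2.27 and 1.76 CPM per kb.

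**Figure D1:**
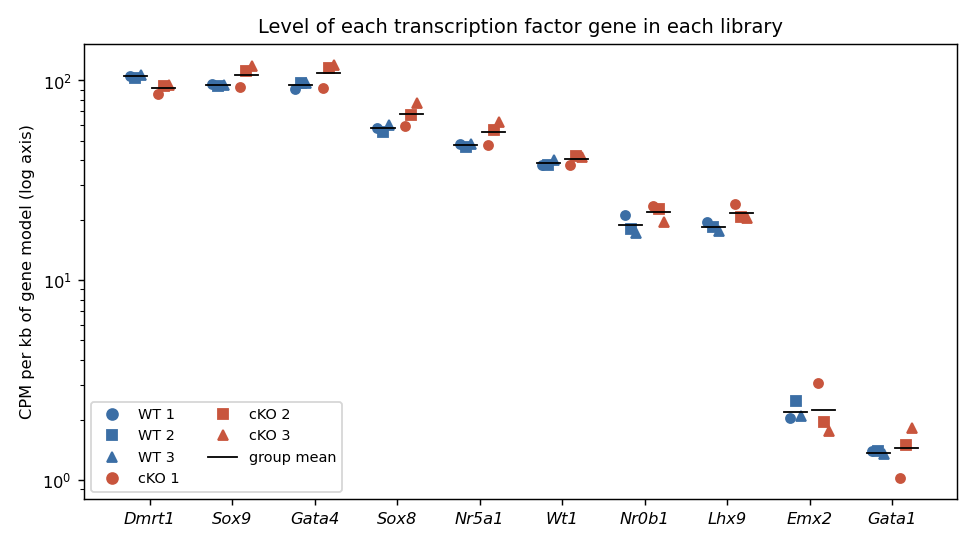
CPM per kb of gene model (log axis) of the 10 genes, in order of their WT mean, with 1 point per library and a line at the group mean. Dmrt1 is the gene whose 3 cKO libraries all lie below its WT libraries, and Lhx9 the one whose cKO libraries all lie above, while the circle of cKO 1 sits apart from cKO 2 and cKO 3 for most genes.

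With all 6 libraries, TMM scaling and the edgeR quasi-likelihood test, 1 of the 10 genes, Dmrt1, passed an adjusted p of 0.05, and it was lower in cKO. Other fits of the same libraries also called Sox8, Gata4, Nr5a1 or Lhx9 higher, as given at each gene. Of all genes tested, 8.34% passed in either direction, 4.94% lower and 3.4% higher, so that 1 of 10 genes passing is near the background. The log2 fold change was above 0 for 9 of the 10 genes, against 51.7% of all genes tested, and below 0 for Dmrt1. Its median over the 10 genes was 0.19, against 0.01 over all genes tested. An unadjusted p under 0.05 was reached by 7 of the 10, against 23.3% of all genes tested. That share is not matched for level, and smaller changes can reach a low p in abundant genes. Sox9, Sox8, Dmrt1, Wt1, Gata4, Nr5a1 and Lhx9 had WT mean CPM above those of 93.9% to 98.4% of genes kept. In these bulk samples, fewer cells of a type and less RNA per cell cannot be told apart.

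Dmrt1 (chr19:25505618-25604329, plus strand) measured 272, 268 and 276 CPM in the WT libraries and 222, 244 and 246 CPM in the cKO libraries. All 3 cKO libraries lay below all 3 WT libraries, a pattern shown by 14.6% of all genes tested, and cKO 1 was the lowest. The gene fell by 12.8% in cKO, a log2 fold change of -0.20 (SE 0.05, 95% interval -0.31 to -0.08, edgeR quasi-likelihood test, adjusted p = 0.0393). The direction was the same under all 17 alternative settings, with log2 fold changes from -0.42 to -0.15, and 13 of them gave an adjusted p under 0.05. The call was lost without WT 1 (edgeR adjusted p = 0.128), without WT 2 (0.142), without WT 3 (0.16) and without cKO 2 (0.0937). Without cKO 1, the log2 fold change was -0.15 (SE 0.05, edgeR adjusted p = 0.0212), and 8.26% of all genes were then called lower.

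Dmrt1 is made in germ cells as well as Sertoli cells, and germ cell markers moved in the same direction. Of 19 germ cell markers tested, 15 fell and none rose, where 4.94% of all genes were called lower, with a median log2 fold change of -0.72. Their summed level was 1540 to 1620 CPM in WT and 879 to 950 CPM in cKO. The count that fell was 14 to 16 when each library was left out in turn. Tex15, a gene of germ cell meiosis and transposon silencing, fell by 1.21 on the log2 scale (SE 0.05, edgeR adjusted p = 7.8e-08), and Ddx4, a germ cell RNA helicase, fell by 1.05 (SE 0.06, edgeR adjusted p = 9.7e-07). The part of these markers in the result for Dmrt1 was not tested.

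Sox9 (chr11:112782224-112787760, plus strand) measured 396, 386 and 393 CPM in WT, against 385, 459 and 488 CPM in cKO. In cKO 1 it was below every WT library, while cKO 2 and cKO 3 lay above all of them, so the groups overlapped. The log2 fold change was 0.18 (SE 0.07, 95% interval 0.02 to 0.34, edgeR adjusted p = 0.159). Sox8 (chr17:25565892-25570686, minus strand) also had its highest values in cKO 2 and cKO 3, at 180, 172 and 187 CPM in the WT libraries and 185, 210 and 239 CPM in the cKO libraries. Only cKO 1 lay within its WT range. Its log2 fold change was 0.24 (SE 0.08, 95% interval 0.07 to 0.41, edgeR adjusted p = 0.089). Sox8 passed with DESeq2 (adjusted p = 0.036), with a term for the replicate number (edgeR adjusted p = 0.0465) and without the low-count filter (edgeR adjusted p = 0.0139). The ratio of Sox8 to Sox9 overlapped between the groups, with a mean log2 difference of 0.06.

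Among the genes that act before and after sex determination, Gata4 (chr14:63198922-63271692, minus strand), a zinc finger partner of NR5A1 and WT1 at Sertoli and Leydig genes, measured 354, 378 and 378 CPM in WT, against 357, 449 and 468 CPM in cKO. Again cKO 1 lay within the WT range and the other cKO libraries above it. The log2 fold change was 0.20 (SE 0.08, 95% interval 0.02 to 0.38, edgeR adjusted p = 0.173; 0.0381 without the low-count filter). Nr5a1 (chr2:38692656-38714542, minus strand), the nuclear receptor SF1, measured 204, 196 and 205 CPM in the WT libraries and 201, 240 and 262 CPM in the cKO libraries. It too overlapped through cKO 1 alone, and its log2 fold change was 0.22 (SE 0.08, 95% interval 0.05 to 0.39, edgeR adjusted p = 0.118; 0.031 without the low-count filter). Wt1 (chr2:105126529-105173616, plus strand), the zinc finger factor of the Wilms tumour locus, was the flattest of the abundant genes. It measured 234, 235 and 247 CPM in WT, against 233, 259 and 257 CPM in cKO, with a log2 fold change of 0.07 (SE 0.06, 95% interval -0.05 to 0.19, edgeR adjusted p = 0.53).

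Nr0b1 (chrX:86191764-86195947, plus strand) measured 38.3, 32.6 and 31.3 CPM in the WT libraries and 42.6, 41 and 35.3 CPM in the cKO libraries. Only cKO 3 lay within the WT range here, and cKO 1 was the highest library. The log2 fold change was 0.22 (SE 0.09, 95% interval 0.01 to 0.42, edgeR adjusted p = 0.189). The log2 ratio of Nr0b1 to Nr5a1, its partner, ran from -1.48 to -1.18 in WT and from -1.66 to -1.01 in cKO, and its group means differed by 0.01.

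Gata1 (chrX:7959260-7978071, minus strand) rested on 65 to 154 counts per library and was at 3.38, 3.38 and 3.29 CPM in WT, against 2.48, 3.63 and 4.41 CPM in cKO. The cKO libraries lay on both sides of the WT range. Its log2 fold change of 0.08 had a wide 95% interval, from -0.37 to 0.52 (SE 0.20, edgeR adjusted p = 0.875), so that neither a fall of 0.37 nor a rise of 0.52 on the log2 scale was outside it. None of the 8 erythroid markers tested was called, and their summed level was 28.3 to 50.5 CPM in WT and 31 to 42.5 CPM in cKO. Of 9 mast cell, megakaryocyte and eosinophil markers tested, which are other cells that make GATA1, 1 fell and none rose. That is near the 8.34% of all genes called in either direction. The gene that fell was Cpa3, a mast cell protease, at -0.76 on the log2 scale (SE 0.18, edgeR adjusted p = 0.0247). The call of Cpa3 was lost without WT 2 (edgeR adjusted p = 0.106), WT 3 (0.111) or cKO 3 (0.054). No marker of this list passed without WT 2 or without WT 3, and 2 fell without cKO 1. Their summed level was 25.7 to 30.4 CPM in WT and 20.3 to 21.5 CPM in cKO. Which cells the Gata1 reads came from was not tested.

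Lhx9 (chr1:138825186-138848577, minus strand), a LIM homeobox gene of the genital ridge that stays on in gonadal stroma, measured 185, 175 and 167 CPM in the WT libraries and 228, 197 and 195 CPM in the cKO libraries. All cKO libraries lay above all WT libraries, as in 13.6% of all genes tested, and cKO 1 was the highest. The log2 fold change was 0.23 (SE 0.07, 95% interval 0.09 to 0.38), just short of the threshold at an adjusted p of 0.0544 (edgeR). It passed in 7 of the 17 alternatives, with DESeq2 (adjusted p = 0.0188) and with a term for the replicate number (0.0169) among them, and its adjusted p ranged from 0.0169 to 0.902. Emx2 (chr19:59458372-59465357, plus strand), a homeobox gene of the coelomic epithelium and urogenital ducts, was at 6.12, 7.46 and 6.25 CPM in WT, against 9.18, 5.85 and 5.27 CPM in cKO. The library cKO 1 lay above the WT range and the other cKO libraries below it. Its log2 fold change was 0.02 (SE 0.19, 95% interval -0.39 to 0.44, edgeR adjusted p = 0.963) and changed sign without cKO 1, to -0.25 (SE 0.15, edgeR adjusted p = 0.28). An opposite-strand model, Emx2os, covers 8.8% of the exon bases of Emx2 and had 3 to 27 counts per library, against 184 to 324 for Emx2 on its own strand.

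Markers of the testis covering and of the ducts, tissues that carry EMX2 or LHX9 in the urogenital tract, were lower in cKO. Of 10 surface mesothelium markers tested, 4 fell and none rose, where 4.94% of all genes were called lower, with a median log2 fold change of -0.88. Bnc1, a zinc finger gene of mesothelium that germ cells also express, fell by 0.92 on the log2 scale (SE 0.09, edgeR adjusted p = 8.3e-05). The summed level of the list was 128 to 136 CPM in WT, 94.6 and 94.1 CPM in cKO 2 and cKO 3, and 60.7 CPM in cKO 1. The count that fell was 2 without any one WT library and 6 without cKO 1. Of 9 duct epithelium markers tested, 2 fell and none rose (1 fell without any one WT library or without cKO 2), beside the same 4.94% of all genes. This list summed to 69.7 to 76.6 CPM in WT and 53.4 to 64.8 CPM in cKO. Emx2 and Lhx9 were highest in cKO 1, the library with the lowest mesothelium and duct sums. What these markers contribute to either gene was not tested.

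The 10 genes fell into patterns by how they stood in cKO 1. Relative to the WT mean, Sox9, Sox8, Gata4, Nr5a1 and Wt1 lay between -0.05 and 0.05 on the log2 scale in cKO 1. In cKO 2 and cKO 3 Sox9 stood at 0.23 and 0.32. Gata4 stood at 0.28 and 0.34 in those libraries, and Wt1 at 0.12 and 0.11. Lhx9 and Emx2 had the opposite order, at 0.38 and 0.48 in cKO 1 and at most 0.17 in the other cKO libraries. Nr0b1 was also highest in cKO 1, at 0.33, with 0.28 in cKO 2 and 0.06 in cKO 3. Gata1 stood at -0.44 in cKO 1 and at 0.11 and 0.40 in the others. Dmrt1 was below the WT mean in all 3, at -0.29, -0.16 and -0.15.

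**Figure D2:**
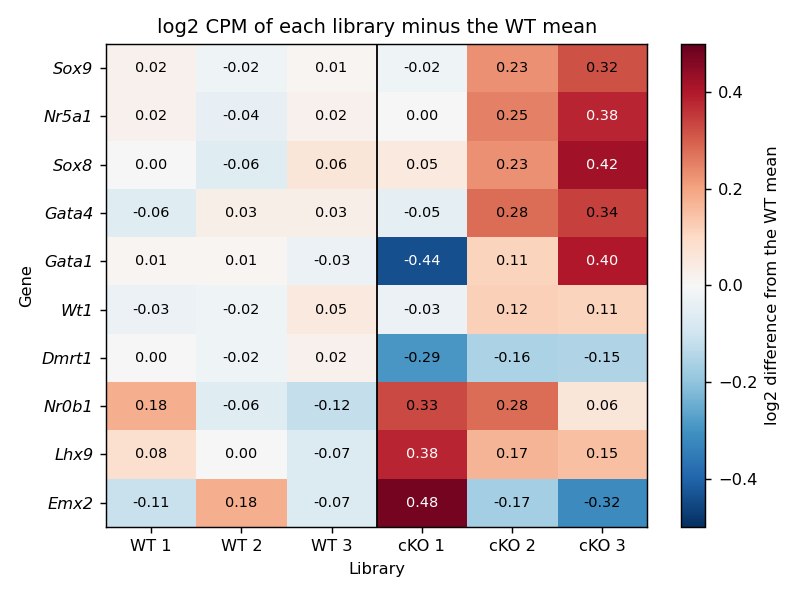
Difference of log2 CPM in each library (columns) from the mean of the 3 WT libraries, for each gene (rows), with red above and blue below that mean. Sox9, Nr5a1, Sox8 and Gata4 share 1 pattern, near 0 in cKO 1 and 0.23 to 0.42 in cKO 2 and cKO 3, Lhx9 and Emx2 are highest in cKO 1, and Dmrt1 is negative in all 3 cKO libraries.

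With cKO 1 left out, Sox9, Sox8, Gata4, Nr5a1 and Lhx9 were called higher and Dmrt1 stayed lower, so that 6 of the 10 genes passed. In that comparison of 3 WT with 2 cKO libraries, 8.09% of all genes were called higher. Sox9 had a log2 fold change of 0.27 (SE 0.04, edgeR adjusted p = 1.8e-04), and Sox8 had 0.32 (SE 0.06, edgeR adjusted p = 3.1e-04). Gata4 had 0.31 (SE 0.05, edgeR adjusted p = 6.1e-05), Nr5a1 had 0.31 (SE 0.05, edgeR adjusted p = 1.1e-04) and Lhx9 had 0.15 (SE 0.05, edgeR adjusted p = 0.0435). Wt1 at 0.11 (edgeR adjusted p = 0.108), Nr0b1 at 0.16 (0.233) and Gata1 at 0.26 (0.383) were not called. Leaving out any WT library or cKO 2 gave no call among the 10, and leaving out cKO 3 gave Lhx9 higher and Dmrt1 lower. The cKO libraries also differed among themselves in other tissue markers. Stroma markers summed to 11300 CPM in cKO 1, within the 10500 to 11400 CPM of WT. They summed to 8300 and 8410 CPM in cKO 2 and cKO 3, below the WT range. The largest term of that sum was Col1a1, at 4110, 2530 and 2590 CPM in cKO 1, cKO 2 and cKO 3. Not every stroma marker was higher in cKO 1. In the same order, Pdgfra measured 727, 753 and 747 CPM in cKO, against 680, 695 and 696 CPM in WT. Tcf21 measured 69.9, 79.1 and 89.5 CPM in cKO, against 75, 73.8 and 73.8 CPM in WT. The part of stroma RNA in the difference between the cKO libraries was not tested.

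Within the 10 genes, Sox9 and Nr5a1 had the most similar profiles over the 6 libraries, with a root mean square distance of 0.023 between their centred log2 CPM values. Sox8 and Nr5a1 were 0.032 apart, Sox9 and Gata4 were 0.047 apart, and Nr0b1 and Lhx9 were 0.079 apart. For comparison, the median gene of 11250 with a mean of at least 5 CPM was 0.16 from Sox9. Those genes were not matched to Sox9 for level, and the noise of lower counts can add to a distance. The gene nearest to Sox9 was Tpcn1, a lysosomal ion channel gene, at 0.012, followed by Naglu, a lysosomal enzyme gene, at 0.013 and Bcar1, an adhesion adaptor gene, at 0.017. Nr5a1 was nearest to Tpcn1 (0.02), Sdc3, a syndecan gene (0.021), and Sox9. Dmrt1 was nearest to Tnrc6c (0.016) and Dicer1 (0.019), both genes of the microRNA pathway, and Cdk6 (0.022), a cell cycle kinase gene. Dicer1 was called lower, a call lost without the same 4 libraries as for Dmrt1 (edgeR adjusted p up to 0.112). It measured 128, 127 and 131 CPM in the WT libraries and 104, 112 and 113 CPM in the cKO libraries. These distances describe 6 libraries in 2 groups and carry no test.

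A ratio of 2 genes within a library does not depend on how libraries are scaled. The log2 ratio of Dmrt1 to Sox9, per kb, was 0.13, 0.15 and 0.16 in WT and -0.12, -0.24 and -0.32 in cKO. The ratio was lower in every cKO library than in every WT library, and the group means differed by -0.37. Its sign depends on the lengths taken: with the longest coding transcripts it was 0.28 to 0.31 in WT and 0.03, -0.09 and -0.17 in cKO 1, cKO 2 and cKO 3, with the same difference between groups. Of the 6 ratios computed, this was the one whose groups did not overlap. It joins the gene already called lower to one with a positive log2 fold change. It therefore repeats the results for Dmrt1 and Sox9 and adds no separate support. The pairs were chosen with earlier results of these data known, and the share of other gene pairs with separate groups was not computed. The ratio of Lhx9 to Wt1 differed by 0.17, that of Emx2 to Wt1 by -0.07 and that of Gata1 to Gata4 by -0.16 between group means, each with overlapping libraries.

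**Figure D3:**
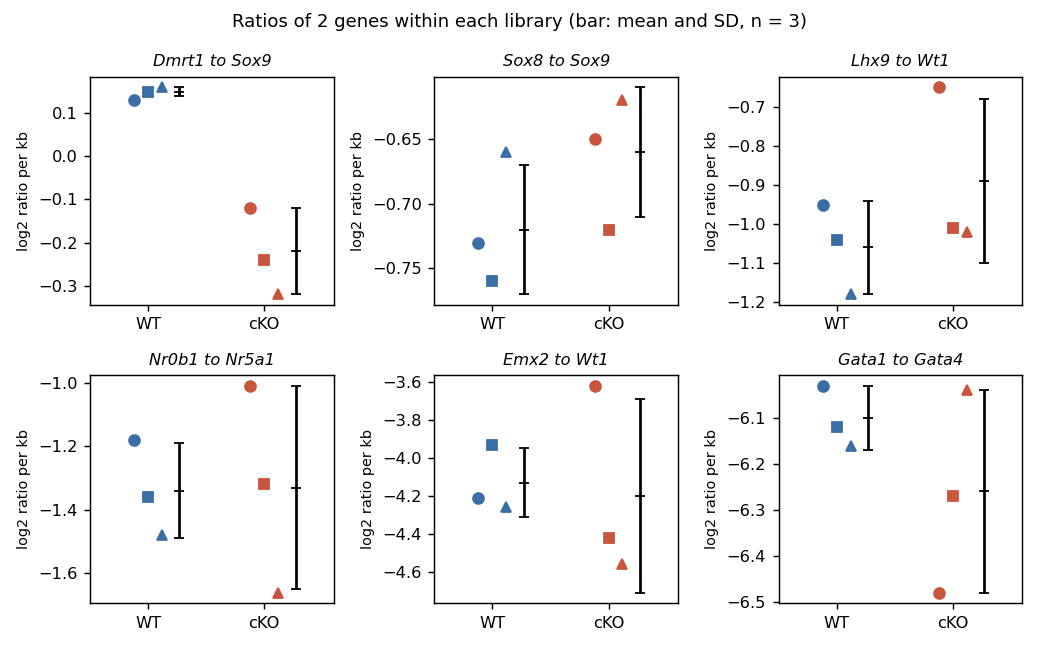
Log2 ratio of 2 genes per kb in each library for 6 pairs, with points for libraries (circle 1, square 2, triangle 3), and the group mean with its SD (n = 3) beside them. Each panel has its own vertical scale. Dmrt1 to Sox9 is 0.13 to 0.16 in WT and -0.32 to -0.12 in cKO, and the other pairs overlap.

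Of 20 Sertoli cell markers tested, none of them among the 10 genes, 9 rose in cKO, none fell and 11 were not called. Of all genes tested, 3.4% were called higher. The markers had a median log2 fold change of 0.27 and a summed level of 7030 to 7170 CPM in WT and 7840 to 8570 CPM in cKO. Ctsl, a protease abundant in Sertoli cells, rose by 0.30 on the log2 scale (SE 0.05, edgeR adjusted p = 0.00371), and Clu, a secreted chaperone, rose by 0.28 (SE 0.06, edgeR adjusted p = 0.00962). The call of Clu was lost without WT 1, WT 3 or cKO 2 (edgeR adjusted p up to 0.0621). The count that rose was 2 without WT 1 or cKO 2, 3 without WT 2 or WT 3 and 12 without cKO 1. Aldh1a1, Mro and Aard, other abundant markers of the list, differed by less than their spread, with group means of 667 and 665, 219 and 222, and 887 and 899 CPM in WT and cKO.

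When libraries were scaled to the summed Sertoli markers, a list that holds none of the 10 genes, the median log2 fold change of all genes moved to -0.21. Under that scaling Sox9 stood at -0.04 (SE 0.06, edgeR adjusted p = 0.661), Sox8 at 0.02, Gata4 at -0.02, Nr5a1 at -0.01 and Lhx9 at 0.02. Dmrt1 stood at -0.42 (SE 0.05, edgeR adjusted p = 1.3e-04) and Wt1 at -0.15 (SE 0.05, edgeR adjusted p = 0.039), so 2 of the 10 genes were called lower and 0 higher. Of all genes, 29.4% were then called lower and 1.16% higher, so a lower call is common under it. Clu and Ctsl, which rose under TMM, made up 46% of the marker counts in WT, and under the summed scaling 4 of the Sertoli markers fell and none rose. With each marker weighted equally, by the median ratio, the median of all genes was -0.16 and Dmrt1 stood at -0.37 (SE 0.06, edgeR adjusted p = 5.8e-04), while Wt1 at -0.11 (edgeR adjusted p = 0.225) was not called. A change of scaling moves all genes by nearly the same amount, so a gene's place relative to the median of all genes is nearly fixed. Under the summed scaling Dmrt1 therefore still lay below that median and Sox9, Sox8, Gata4, Nr5a1 and Lhx9 above it. This adds nothing to the TMM result. Wt1 also lay above that median, although it was called lower against 0.

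**Figure D4:**
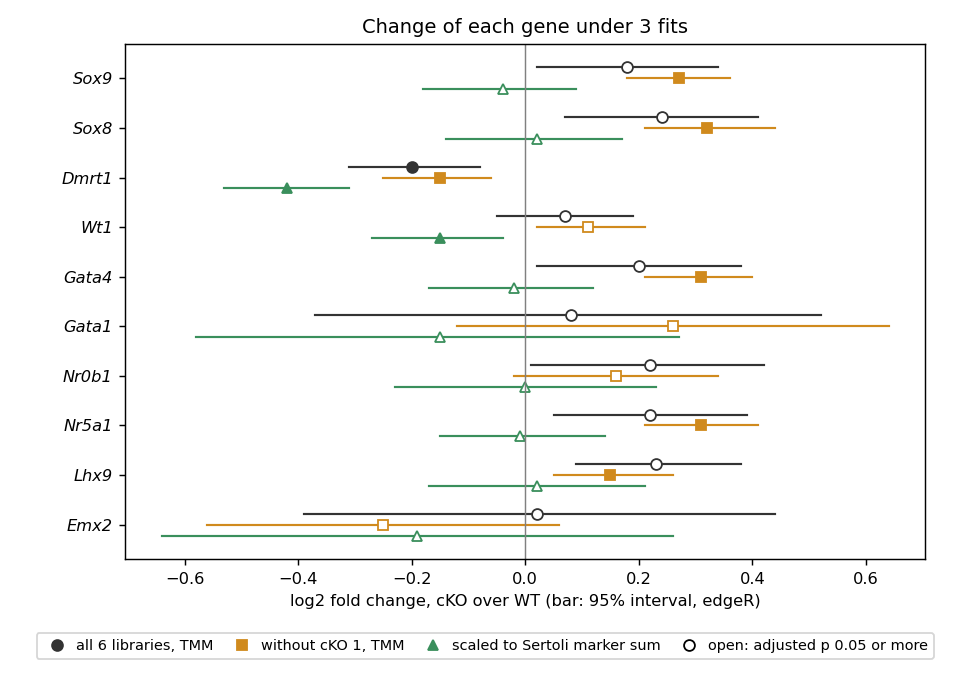
Log2 fold change of cKO over WT for each gene with its 95% interval, for all 6 libraries (circles), without cKO 1 (squares) and with libraries scaled to the summed Sertoli markers (triangles), where filled symbols have an adjusted p under 0.05. Dmrt1 is below 0 and filled in all 3 fits, and Sox9, Sox8, Gata4, Nr5a1 and Lhx9 are filled above 0 without cKO 1 and lie within 0.04 of 0 under the marker scaling.

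Genes that these factors are known to control in the testis were counted next. Of 22 such targets tested, 5 rose and none fell, where 3.4% of all genes were called higher, with a median log2 fold change of 0.14. With libraries scaled to the summed Sertoli markers, 3 rose and 4 fell, with a median of -0.08. Cyp17a1, an enzyme of androgen synthesis driven by NR5A1, measured 85.6, 78.4 and 84.4 CPM in WT, against 112, 127 and 139 CPM in cKO, a log2 fold change of 0.60 (SE 0.08, edgeR adjusted p = 5.0e-04). Every cKO library lay above every WT library. Lhcgr, the luteinising hormone receptor, rose by 0.70 (SE 0.11, edgeR adjusted p = 0.00168) and Star, which moves cholesterol into mitochondria, by 0.34 (SE 0.06, edgeR adjusted p = 0.00323). Scarb1, a lipoprotein receptor, rose by 0.41 (SE 0.11, edgeR adjusted p = 0.0488), a call lost without any library other than cKO 1 (edgeR adjusted p up to 0.213), and Ptgds, a prostaglandin D synthase gene linked to SOX9, by 0.72 (SE 0.11, edgeR adjusted p = 0.00181).

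Amh, the anti-Müllerian hormone gene controlled by SOX9, GATA4, WT1 and NR5A1, measured 298, 282 and 301 CPM in the WT libraries and 285, 357 and 434 CPM in the cKO libraries. Its cKO 1 value lay within the WT range, as for Sox8, Gata4 and Nr5a1, and its log2 fold change of 0.29 (SE 0.11) had an edgeR adjusted p of 0.141. Without cKO 1, Amh stood at 0.43 (edgeR adjusted p = 3.2e-05). Dhh, a Sertoli ligand for Leydig and myoid cells, measured 88.4, 91.5 and 95.8 CPM in WT, against 90.7, 99.1 and 110 CPM in cKO, and was not called unless cKO 1 was left out (log2 fold change 0.18, edgeR adjusted p = 0.0334). Without cKO 1, 11 of the 22 targets were called higher and 1 lower, where 8.09% of all genes were called higher and 8.26% lower. Leaving out any other library gave 4 higher and 0 lower. Of 11 Leydig cell markers tested, 4 rose and none fell, where 3.4% of all genes were called higher. They were Cyp17a1, Lhcgr, Star and Scarb1, which are also 4 of the 5 targets that rose. Under the marker scaling 2 Leydig markers rose and 2 fell.

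Of 24 regulators of the wider gonad and sex determination network tested, 2 fell and none rose, with a median log2 fold change of 0.07. That is near the 8.34% of all genes called in either direction. Nr5a2, the closest relative of Nr5a1, fell by 0.51 (SE 0.12, edgeR adjusted p = 0.0235), from 15.3 ± 2.5 to 10.8 ± 0.68 CPM (SD, n = 3). Sox10, a relative of Sox9 and Sox8, fell by 0.95 (SE 0.26, edgeR adjusted p = 0.0447), from 2.75 ± 0.33 to 1.41 ± 0.52 CPM (SD, n = 3). Both calls were lost without WT 2 (edgeR adjusted p = 0.131 for Nr5a2 and 0.19 for Sox10) and without cKO 2 (0.0614 and 0.168). Nr5a2 was also lost without cKO 3 (0.0528), and Sox10 without WT 1 (0.11) or WT 3 (0.0964). Without cKO 1, 5 regulators rose and 4 fell, where 8.09% of all genes were called higher and 8.26% lower. With any other library left out none rose and 0 to 2 fell. With the summed Sertoli marker scaling 9 fell and none rose, where 29.4% of all genes were called lower. Sry, the switch gene, had 3 to 25 counts per library and was not tested.

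Family relatives of the 10 genes fell where they were called. Of 15 tested, 5 fell and none rose, where 4.94% of all genes were called lower, with a median log2 fold change of 0.05. When each library was left out in turn, 2 to 5 fell (2 without WT 1, WT 2 or cKO 2, and 3 without WT 3). Lhx2, a LIM homeobox relative of Lhx9, measured 8.07, 10 and 8.59 CPM in the WT libraries and 3.92, 2.92 and 3.93 CPM in the cKO libraries, a log2 fold change of -1.31 (SE 0.15, edgeR adjusted p = 3.4e-04). Its groups were far apart and in the opposite direction to Lhx9. Dmrtc2, a DM-domain gene of male germ cells, fell by 1.34 (SE 0.27, edgeR adjusted p = 0.00911), a call lost without WT 1 (edgeR adjusted p = 0.0532). Dmrt3, which lies 6.21 kb beyond the end of Dmrt1 at chr19:25610537-25623920 (plus strand), measured 12.8, 13.2 and 13.5 CPM in WT, against 10.2, 9.79 and 8.83 CPM in cKO, and fell by 0.46 (SE 0.10, edgeR adjusted p = 0.0157). Kank1, 71.1 kb before Dmrt1, had a log2 fold change of -0.05 (SE 0.05, edgeR adjusted p = 0.628). The call of Dmrt3 was lost without WT 1 (edgeR adjusted p = 0.0529), WT 2 (0.078), WT 3 (0.072) or cKO 2 (0.0576), the same libraries as for Dmrt1.

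Of the 20 nearest protein-coding genes on either side of the 10, which were added after their values were seen, 14 were tested. Of these, 1 rose and 3 fell, Dmrt3 among them, where 3.4% of all genes were called higher and 4.94% lower. Nr6a1, the germ cell nuclear factor gene 8.83 kb from Nr5a1, fell by 0.84 (SE 0.11, edgeR adjusted p = 7.0e-04), while Nr5a1 had a positive log2 fold change. Mageb4, 54.3 kb from Nr0b1, fell by 0.90 (SE 0.12, edgeR adjusted p = 6.1e-04). Rab11fip2, 438 kb from Emx2, rose by 0.21 (SE 0.05, edgeR adjusted p = 0.0346).

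Ovarian pathway genes, which oppose SOX9 and DMRT1, were also read. Of 11 tested, 1 fell and none rose, near the 8.34% of all genes called in either direction, with a median log2 fold change of -0.05. The gene that fell was Fst, follistatin, an activin inhibitor. It measured 23.8, 26.4 and 25.5 CPM in the WT libraries and 12.4, 12.7 and 13.2 CPM in the cKO libraries, a log2 fold change of -0.98 (SE 0.08, edgeR adjusted p = 3.1e-05). Rspo1, a WNT agonist of the fetal ovary, measured 20.2 ± 1.1 CPM in WT and 19.5 ± 0.63 CPM in cKO (SD, n = 3). Foxl2, the granulosa cell factor repressed by DMRT1, had 0 to 13 counts per library and was not tested, the highest count being in cKO 3. Without cKO 1, 3 of the ovarian genes fell, where 8.26% of all genes were called lower, and the count was 1 without any other library.

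**Figure D5:**
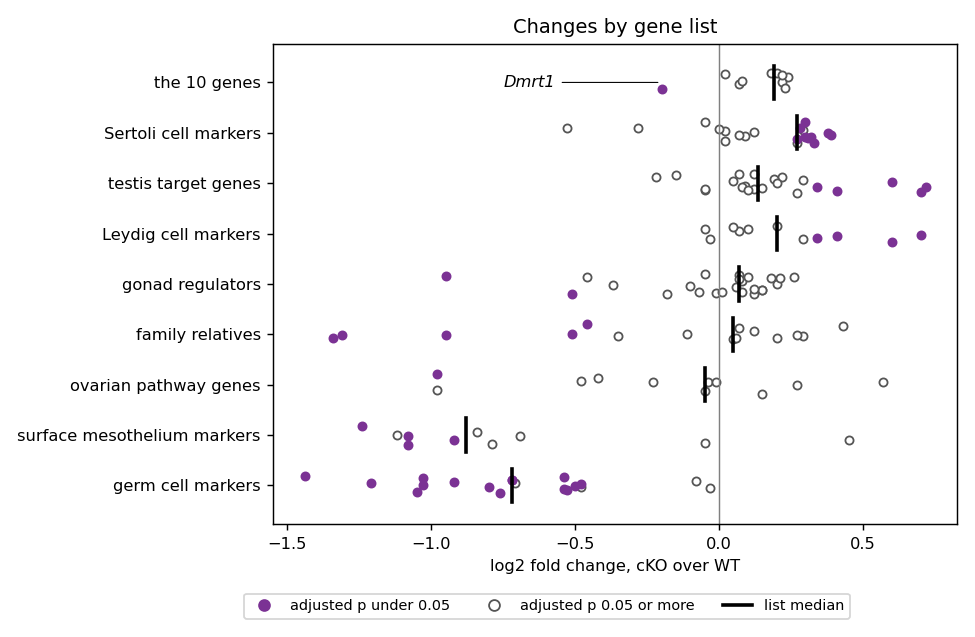
Log2 fold change of cKO over WT for each tested gene of 9 lists (1 point per gene, spread vertically for display), with filled points for an adjusted p under 0.05 and a bar at the list median. The medians are 0.19 for the 10 genes, 0.27 for Sertoli markers, 0.14 for target genes, 0.05 for relatives and -0.72 for germ cell markers, and Dmrt1 is the filled point among the 10.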

How the data were processed

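Strand-selected libraries were made from total RNA of day 4 testes with random and poly(T) priming and depletion of unwanted transcripts, per the labels' protocols, while the labels' molecule field names polyA RNA. Per the file headers, the authors deposited unnormalized gene counts from featureCounts 1.6.4 with GENCODE M18 models, taken on the gene's strand. Reads were aligned to GRCm38.p5 and cutadapt and HISAT2 were used, per the submitters' processing notes, which give no versions of these. Reads lying over more than 1 gene or placed in more than 1 spot were not counted, so shared sequence is under-counted.

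Symbols came from GENCODE M21 (54079 of 54232 gene rows), and no column was left out. Genes passing filterByExpr (minimum count 10, minimum total 15) were scaled by TMM and compared with the edgeR 4.0.16 quasi-likelihood test (R 4.3.3), two-sided and without covariates, with Benjamini-Hochberg adjustment over all genes kept. Called means an adjusted p under 0.05. The fit was tested on simulated data. CPM uses TMM-scaled library sizes, and CPM per kb divides by the exon bases of the gene model. Ratios used a prior count of 0.5 on raw counts, and distances used log2 CPM. Depth was 26126694 to 43265614 counts per library, and Gata1 and Emx2 rest on the fewest counts of the 10 genes.

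The 10 genes, 14 other gene lists and the tests were chosen with earlier results of these data known. Genes were named by rule: the 10, from each list the first 2 and up to 4 called genes with the lowest p, and the 3 nearest profiles of Sox9, Dmrt1 and Nr5a1. From these the text names those that bear on the 10. 1 item of these lists was left out of them and is not reported here. Aldh1a1, Mro and Aard and the neighbouring genes were added after their values were seen. Alternatives covered scaling, filters, DESeq2 1.42.0, limma-voom (limma 3.58.1), a robust fit, a replicate block and leaving out each library. Scaling by the median Sertoli marker ratio and the longest coding transcript (for levels and the Dmrt1 to Sox9 ratio) were chosen after seeing the data. RefSeq promoter windows were found for 5 of the 10 genes.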

Additional observations from a re-analysis of the deposited data

How the results depend on the processing

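Dmrt1 kept its direction under all 17 alternatives. Counts of calls moved most with the scaling and with single libraries. Under the summed Sertoli marker scaling, all genes gave 233 higher and 5920 lower, and the 10 genes 2 lower. The calls in lists were then all lower for 9 regulators, 8 relatives, 7 ovarian genes, 4 Sertoli markers, 9 mesothelium, 4 duct and 3 stroma markers, and 5 markers of mast cells, megakaryocytes and eosinophils, and were higher for 2 macrophage markers. The median marker scaling, added after seeing the data, gave 260 higher and 4005 lower among all genes. The share of calls that were higher was 40.7% with TMM, 33.6% with library size alone, 3.79% with the summed and 6.1% with the median marker scaling. Among the 10 genes, 4 were higher with no filter (Sox8, Gata4, Nr5a1 and Lhx9; 1.78% of all genes), 2 with DESeq2 (Sox8 and Lhx9; 4.49% of all genes), and 1 each with limma-voom and the robust fit (Lhx9; 3.71% and 3.74% of all genes). Leaving out 1 library gave 236 to 1670 genes higher, 387 to 1705 lower, and among the 10 genes 0 to 5 higher and 0 to 1 lower. The marker scalings move all genes down by nearly the same amount, with medians of -0.21 (summed) and -0.16 (median ratio) against 0.01 with TMM. Fits that leave out a library also have fewer samples. The cause of the shifts between those fits was not tested.

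Samples share the numbers 1 to 3 across groups in the labels. Deviations of same-numbered samples correlated at 0.07, 0.04 and 0.10, and each sample correlated best with its own number, a hint of pairing from the data. The correlations were small, at or under 0.10, and the labels tie no number to a litter, batch or day, so the comparison was made without the block. With the replicate block, 2 of the 10 genes were called higher (Sox8, edgeR adjusted p = 0.0465, and Lhx9), as were 3.67% of all genes, and Dmrt1 stayed lower (edgeR adjusted p = 0.0325). Under that block Emx2 stood at -0.000091.

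Signs changed in genes that had not been called. Under the summed marker scaling the values with a changed sign were Sox9 -0.04, Wt1 -0.15, Gata4 -0.02, Gata1 -0.15, Nr0b1 -0.00062, Nr5a1 -0.01, Emx2 -0.19, Dmrt2 -0.17, Dhh -0.10, Cyp11a1 -0.13, Myh11 -0.03, Cdh5 -0.08, Tpcn1 -0.03, Naglu -0.04 and Bcar1 -0.05. Under the median marker scaling they were Wt1 -0.11, Gata1 -0.11, Emx2 -0.14, Dmrt2 -0.12, Dhh -0.05, Cyp11a1 -0.08, Cdh5 -0.03 and Bcar1 -0.0014. Emx2 was -0.04 with limma-voom, -0.03 without WT 1, -0.02 without WT 3, and ranged from -0.25 to 0.17 when 1 library was left out. The same ranges were -0.13 to 0.26 for Gata1, -0.08 to 0.26 for Dmrt2 (-0.02 without cKO 1), -0.01 to 0.23 for Cyp11a1, -0.01 to 0.83 for Pax2, -0.27 to 0.08 for Pax8, -0.16 to 0.02 for Acta2 and -0.01 to 0.28 for Myh11. A prior count of 2 in the ratios changed none of the 6 beyond the spread between replicates. Depth limits Gata1, with 65 counts in its shallowest library.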

Other observations

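Macrophage and leukocyte markers, which belong in no comparison above, were higher in cKO. Of 10 tested, 4 rose and none fell, where 3.4% of all genes were called higher, with a median log2 fold change of 0.35. Their summed level was 93.2 to 104 CPM in WT and 126 to 128 CPM in cKO, and in this list cKO 1 did not stand apart. The count that rose was 0 without WT 2, 1 without WT 1, WT 3 or cKO 2, 2 without cKO 3 and 5 without cKO 1. Mrc1, a mannose receptor of tissue macrophages, measured 31.9, 31.1 and 30.6 CPM in the WT libraries and 43.1, 39.5 and 36.7 CPM in the cKO libraries. Its call was lost without any one WT library or without cKO 2 (edgeR adjusted p up to 0.0806). Of 8 endothelial markers tested, 1 rose and none fell (0 without WT 2, and 3 higher and 1 lower without cKO 1), beside the 8.34% of all genes called in either direction. Pecam1, an adhesion molecule of vessel walls, measured 36.8 ± 2 CPM in WT and 47.9 ± 3.2 CPM in cKO (SD, n = 3).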
